A study of Mus musculus with 60 samples.

Results

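This comparison set macrophages given high-density lipoprotein (HDL) and then the ligand CpG against macrophages given HDL and then the ligand P3C. Its members are the 6 arrays of 60 that carry the wild-type genotype and either of these conditions, 3 arrays a group. All 6 hold RNA from bone marrow-derived macrophages of C57BL/6 mice aged 6 to 8 weeks, matured over 6 d with M-CSF at 40 ng/ml. Both groups received 2 mg/ml HDL over 6 h of pretreatment, and the ligand was then present for 4 h, as CpG at 100 nM or P3C at 50 ng/ml. The doses of the ligands are in different units and cannot be matched, so each difference below is between these doses at one time. Beside them stand the wild-type HDL arrays without ligand, the wild-type CpG and P3C arrays without HDL, and HDL with either ligand in macrophages labelled Atf3-deficient, each in 3 arrays from the same experiment of 36. Nothing in the labels ties the 3 arrays of a group to separate mice or cultures, so p-values measure the spread between arrays, which may be technical.

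CpG DNA carries unmethylated motifs that are read inside endosomes by Toll-like receptor 9 (TLR9). P3C, a synthetic lipopeptide, is instead read at the cell surface by TLR2 with a partner such as TLR1. Both receptors signal through the adaptor MyD88 to NF-kB and MAP kinases and so switch on cytokine and chemokine genes; TLR9 in endosomes can also engage interferon regulatory factors. HDL removes cholesterol from macrophages and is known to dampen their response to Toll-like receptor ligands. The question of this comparison was which ligand differences were present in cells that had seen HDL first.

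The 6 arrays detected between 12880 and 14198 of 45281 probes. Of 9 macrophage markers, 8 were detected on all 6 arrays, among them Csf1r, Adgre1 and Itgam, and Cd163 on none. Their summed signal ran from 68490 to 72490 with CpG and from 67060 to 71280 with P3C. The 7 markers of T and NK cells were detected on none of the 6 arrays. Of 7 fibroblast markers Dcn was detected on all 6 arrays and 5 on none. Of 6 endothelial markers Vwf was detected on all 6 and 4 on none. Of 9 neutrophil markers, S100a8 and S100a9 were detected on all 6 and 5 on none, and the list summed to 693.6 to 761 with CpG and 561.2 to 736.8 with P3C; the part of these markers in the differences below was not tested. In bulk RNA, fewer cells of a type and less RNA per cell cannot be told apart. Pearson correlations over tested genes were 0.9906 to 0.994 between arrays of one group and 0.9891 to 0.9931 between arrays of different groups. No chip held arrays of both groups: HDL with CpG lay on chips 3, 4 and 4, and HDL with P3C on chips 2, 5 and 6.

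After HDL, the ligands differed at few genes, and most of those were higher with CpG. Of 9213 genes tested, 56 passed (0.608%), 48 higher with CpG (0.521%) and 8 higher with P3C (0.0868%), by limma with Benjamini-Hochberg adjustment at 0.05. The leading genes encode secreted signals: the vasoconstrictor peptide endothelin-1 (Edn1, 4.17-fold higher with CpG), the anti-inflammatory cytokine interleukin-10 (Il10, 3.38-fold), the p28 subunit of interleukin-27 (Il27, 2.82-fold) and the monocyte chemoattractant Ccl12 (2.74-fold). In the authors' deposited matrix these differences were smaller for Edn1 (log2 1.43, against 2.06), Il10 (1.37 against 1.76), Il27 (0.74 against 1.50) and Ccl12 (0.61 against 1.46). For scale, against HDL alone CpG raised 18.9% of genes and lowered 30.1% (4514 in all, 49%) while P3C raised 18.1% and lowered 26.9% (4143 in all, 45%), comparisons that share the HDL arrays. The groups did not overlap for any of the 56 genes, and neither did they for 15.1% of all genes tested. A total of 12 of the 56 differed more than 2-fold, each higher with CpG. Of these, Ccl12 was detected on 1 of the 3 P3C arrays, so its fold rests on values near background. With arrays scaled to a common median instead of quantile normalised, 3 genes passed, 3 higher and 0 lower. With the chip as a fixed effect 21 passed, of which 20 were among the 56. Leaving out 1 of the 6 arrays gave between 19 and 43 genes, the fewest without replicate 1 of HDL with CpG.

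**Figure D1:**
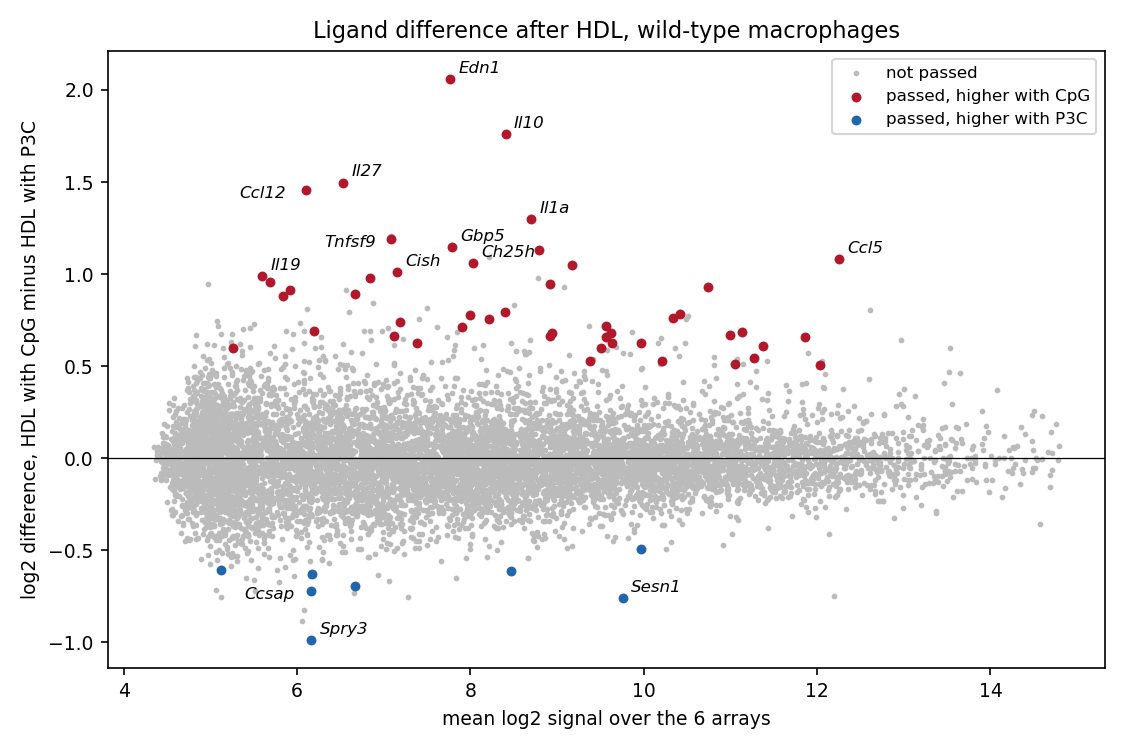
Each point is 1 of 9213 genes, with its mean log2 signal over the 6 arrays on the x axis and its log2 difference, HDL with CpG minus HDL with P3C, on the y axis. Red points are the 48 genes that passed and were higher with CpG, and blue points the 8 higher with P3C; Edn1 lies at 2.06 and Spry3 at -0.99.

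Edn1 had log2 signals of 9.15, 9.02 and 8.23 with CpG after HDL, 7.08, 6.33 and 6.81 with P3C after HDL, and 5.42, 5.06 and 5.01 with HDL alone. The 3 groups did not overlap, and every CpG array lay at least 1 log2 unit above every P3C array. The log2 difference between the ligands was 2.06 ± 0.20 (SE), with a 95% interval from 1.65 to 2.47 and a limma adjusted p of 3.05e-07. Il10 gave 9.59, 9.13 and 9.14 with CpG, 7.76, 7.22 and 7.60 with P3C, and 6.28, 6.20 and 5.63 with HDL alone. Its P3C arrays lay between the other groups, and the difference was 1.76 ± 0.29 (SE; interval 1.17 to 2.35, limma adjusted p = 0.00217). Il27 gave 7.17, 7.38 and 7.29 with CpG, 5.67, 5.57 and 6.12 with P3C, and 4.73, 4.46 and 5.09 with HDL alone. The CpG arrays of Il27 spanned less than the gap to the highest P3C array, and the difference was 1.50 ± 0.20 (SE; interval 1.08 to 1.91, limma adjusted p = 0.000174). Edn1, Il10 and Il27 passed in each of the 16 alternative settings tried for this comparison; no other gene of the 56 did.

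The stretch before the transcription start was examined for short motifs because 48 genes were higher with CpG. RefSeq windows of 250 bases before a start (mouse build GRCm38.p6) were matched for 38 of the 48, in 61 windows, and both strands were searched; Il10 and Il27 were not among the genes matched. The letters GAAA, any 2 bases and GAAA again, the core of the interferon-stimulated response element (ISRE), occurred in 6 of the 61 windows (9.84%), against 2.98% of all 32851 windows of that length. The GAS-type letters TTCNNNGAA were in 9.84% against 7.02%, TGANTCA (AP-1) in 9.84% against 6.75%, TGACGTCA (CRE) in 3.28% against 1.55%, the kB motif in 13.1% against 7.25% and TATAAA in 13.1% against 12.4%. In the 9 windows of genes higher with P3C, the kB motif was in 3 and each of the other motifs in 0. These shares are descriptions with no test, and windows of one gene can overlap. The 32851 windows belong to 27025 genes, more than the 9213 tested. Whether the shares differ among expressed genes or genes raised by both ligands was not tested. The ISRE windows came from 5 genes, and 1 window of each is printed here, 5′ to 3′ along the gene's strand, to show how the letters sit in front of genes that differ in role. Capitals mark the ISRE letters on either strand.
Edn1 (chr13:42301226-42301475, plus strand): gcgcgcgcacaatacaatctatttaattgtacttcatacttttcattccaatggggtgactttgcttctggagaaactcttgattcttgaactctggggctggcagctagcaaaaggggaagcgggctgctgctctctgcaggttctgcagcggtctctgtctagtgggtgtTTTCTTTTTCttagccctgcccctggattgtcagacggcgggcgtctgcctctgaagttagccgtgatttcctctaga
Gbp5 (chr3:142496684-142496933, plus strand): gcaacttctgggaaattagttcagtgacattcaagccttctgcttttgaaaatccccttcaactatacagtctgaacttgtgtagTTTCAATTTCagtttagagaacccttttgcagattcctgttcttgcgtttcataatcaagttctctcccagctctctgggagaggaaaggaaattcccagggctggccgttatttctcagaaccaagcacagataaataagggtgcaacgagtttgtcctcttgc
Gbp3 (chr3:142559794-142560043, plus strand): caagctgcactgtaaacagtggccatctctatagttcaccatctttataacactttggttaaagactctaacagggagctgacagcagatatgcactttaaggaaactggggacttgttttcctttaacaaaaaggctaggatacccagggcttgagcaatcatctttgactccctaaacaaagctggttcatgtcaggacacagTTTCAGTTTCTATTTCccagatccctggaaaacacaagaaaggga
Il19 (chr1:130940116-130940365, minus strand): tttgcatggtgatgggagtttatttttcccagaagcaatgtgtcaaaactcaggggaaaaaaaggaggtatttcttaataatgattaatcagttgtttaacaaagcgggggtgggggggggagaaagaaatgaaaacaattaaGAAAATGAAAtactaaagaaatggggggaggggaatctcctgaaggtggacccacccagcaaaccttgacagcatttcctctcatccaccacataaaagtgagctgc
Bcor (chrX:12160347-12160596, minus strand): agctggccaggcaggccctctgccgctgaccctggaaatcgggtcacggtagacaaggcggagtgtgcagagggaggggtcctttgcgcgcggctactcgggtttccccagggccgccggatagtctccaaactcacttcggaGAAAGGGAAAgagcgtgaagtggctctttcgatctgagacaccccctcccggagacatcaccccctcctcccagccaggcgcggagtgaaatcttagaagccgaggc
The match began 78 bases before the start in Edn1, 165 in Gbp5, 107 in both Il19 and Bcor, and 45 and 39 in Gbp3, where 2 overlapping matches form 1 run. In Edn1, Gbp5 and Gbp3 the letters read on the opposite strand. The windows of Gbp5 and Il19 also held kB letters, both at 77 bases before the start. GAS letters began 245 and 52 bases before the start in Gbp5, 225 in Il19 and 113 in Bcor. The TATAAA letters, on either strand, began 207 bases before the start in Gbp3. Gbp5, Gbp3 and Il19 encode guanylate-binding proteins and a cytokine, described below, and Bcor encodes a corepressor that binds BCL6.

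Among 13 inflammatory cytokine genes tested, 5 passed and each was higher with CpG, against 0.521% of all genes. Of the 13 differences, 12 were above 0 (45.1% over all genes), with a median log2 difference of 0.47 against -0.0191 for all genes. Besides Il27, those that passed were Il1a, Tnfsf9, Il19 and Il15. Il1a, which encodes the alarm cytokine interleukin-1 alpha, gave log2 signals of 9.64, 9.30 and 9.11 with CpG, 8.31, 7.68 and 8.17 with P3C and 5.40, 4.51 and 4.46 with HDL alone. Both ligands were far above HDL, and the CpG arrays were 1.30 ± 0.23 (SE) above the P3C arrays (limma adjusted p = 0.00419). Tnfsf9, the 4-1BB ligand that costimulates T cells, gave 7.60, 7.79 and 7.65 with CpG against 6.51, 6.37 and 6.59 with P3C, a difference of 1.19 ± 0.26 (SE; limma adjusted p = 0.021). Il19, an interleukin-10 family cytokine, gave 6.07, 6.40 and 5.80 against 5.36, 4.73 and 5.22, a difference of 0.99 ± 0.21 (SE; limma adjusted p = 0.0148). Il19 was detected on all 3 arrays with CpG and on 1 of 3 with P3C, and its difference in the deposited matrix was 0.345. Il15, which sustains NK and memory T cells, gave 10.62, 10.79 and 10.76 with CpG, 9.75, 9.91 and 10.24 with P3C and 10.12, 10.08 and 10.24 with HDL alone. For Il15 the P3C arrays overlapped those of HDL alone while the CpG arrays lay above both. No chip held both groups, and with the chip as a fixed effect Il27 and Il1a still passed (limma adjusted p = 0.0144 and 0.0429), whereas Tnfsf9, Il19 and Il15 did not (0.111, 0.143 and 0.0619).

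The best known cytokine targets of these receptors did not pass. Tnf gave 13.72, 13.70 and 13.85 with CpG and 13.23, 13.37 and 13.26 with P3C; the groups did not overlap, but the interval of the difference ran from -0.02 to 0.96 (limma adjusted p = 0.776). Il1b differed by 0.37 (interval -0.15 to 0.90, limma adjusted p = 0.958). Il6 showed the widest scatter of these genes: 8.04, 7.90 and 7.13 with CpG against 6.10, 6.20 and 7.15 with P3C. The groups of Il6 overlapped, and a mean difference of 1.21 (interval 0.42 to 2.00) had a limma adjusted p of 0.254. Ifnb1, encoding interferon beta, and Il12a were not above background on the arrays of either group, and no fold is given for them.

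Of 9 CC chemokines tested, 2 passed, both higher with CpG (0.521% of all genes), and the list median was 0.26. Ccl12 gave 6.80, 6.99 and 6.69 with CpG, 5.95, 4.98 and 5.19 with P3C and 5.36, 5.19 and 5.02 with HDL alone. The P3C arrays overlapped those of HDL alone, but Ccl12 was detected on only 1 of 3 arrays in each of these groups. Both groups lay near background, so the overlap does not show that P3C left Ccl12 unchanged. Its difference between the ligands was 1.46 ± 0.31 (SE; limma adjusted p = 0.017), and a dimmer second probe of Ccl12 gave 0.44. Ccl5, a T cell and monocyte attractant, was the brightest gene more than 2-fold apart: 12.87, 12.76 and 12.75 with CpG, 11.75, 11.47 and 11.92 with P3C and 9.18, 8.76 and 8.48 with HDL alone. The CpG arrays of Ccl5 lay within a narrow band above all P3C arrays, at a difference of 1.08 ± 0.20 (SE; limma adjusted p = 0.00438). Ccl5 passed and Ccl12 did not with the chip as a fixed effect (limma adjusted p = 0.0159 and 0.0783). Ccl3 differed by 0.26 (interval -0.02 to 0.54) and did not pass. The 2 probes of Ccl4 opposed each other: the probe used differed by -0.36 (limma adjusted p = 0.561) and the other, with every probe tested on its own, by 0.73 (limma adjusted p = 0.0378), so no direction is given for Ccl4.

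None of 7 CXC chemokines tested passed, and their median was -0.00 (-0.11 with median scaling) with 3 of 7 differences above 0. Both counts are near the shares over all genes, of which 0.608% passed and 45.1% had differences above 0. Cxcl1, a neutrophil attractant, gave 14.40, 14.57 and 14.82 with CpG and 14.62, 14.59 and 14.59 with P3C, with 11.52, 10.88 and 10.11 for HDL alone. Its P3C values fell inside the span of the CpG values, and the interval of the difference was -0.55 to 0.55. Cxcl2, another neutrophil attractant, differed by -0.07 (interval -0.64 to 0.49), and Cxcl10, an interferon-inducible T cell attractant, by 0.48 (interval -0.07 to 1.04). Such intervals leave room for differences of up to about 1 log2 unit, and these chemokines are not shown to respond alike.

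All 11 members tested of the list of IL-10 and SOCS feedback genes had differences above 0, with a median of 0.41, and 2 passed, Il10 and Cish. Over all genes, 45.1% of differences were above 0 and 0.521% passed as higher with CpG. Cish, a SOCS-family inhibitor of cytokine receptor signalling, gave 7.74, 7.70 and 7.54 with CpG, 6.79, 6.40 and 6.75 with P3C and 5.40, 5.73 and 5.67 with HDL alone. The groups stood in 3 separate steps, and the difference between the ligands was 1.01 ± 0.17 (SE; limma adjusted p = 0.00217). Socs3, the feedback inhibitor of IL-6-type receptors, gave 13.24, 12.94 and 12.86 against 12.31, 12.18 and 12.14, with no overlap, but did not pass (difference 0.80, interval 0.02 to 1.59, limma adjusted p = 0.738). Il1rn, the interleukin-1 receptor antagonist, differed by 0.76 (limma adjusted p = 0.0556). Of 20 NF-kB feedback and target genes, 19 differences were above 0, with a median of 0.29, and 1 passed: Nfkbib, encoding the NF-kB inhibitor IkB-beta, at 8.41, 8.11 and 8.25 against 7.64, 7.82 and 7.17 (difference 0.71 ± 0.17 SE, limma adjusted p = 0.0345). Among 12 dual-specificity phosphatase and mRNA decay genes, Dusp2 and Dusp16, which switch off MAP kinases, passed at 0.79 and 0.51. With the chip as a fixed effect Il10 passed (limma adjusted p = 0.0148), and Cish, Nfkbib, Dusp2 and Dusp16 did not (0.0502, 0.186, 0.098 and 0.188).

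Of 38 interferon-stimulated genes tested, 2 passed, both higher with CpG (0.521% of all genes). Of the differences, 32 were above 0 (45.1% over all genes), and the median was 0.17. The 2 were Gbp5 and Gbp3, GTPases of interferon-induced host defence whose genes lie with 1 protein-coding gene between them. Gbp5 gave 8.51, 8.64 and 7.94 with CpG, 7.32, 7.21 and 7.11 with P3C and 5.02, 4.80 and 4.40 with HDL alone, a ligand difference of 1.15 ± 0.26 (SE; limma adjusted p = 0.0263). Gbp3 gave 9.95, 10.07 and 9.82 against 9.14, 9.20 and 9.63, with the third P3C array close to the lowest CpG array (difference 0.63 ± 0.13 SE, limma adjusted p = 0.0202). Ifi205, Ifi204 and Oasl1, further members, differed by 0.98, 0.91 and 0.69 and did not pass (limma adjusted p = 0.232, 0.477 and 0.193). Gbp3 passed and Gbp5 did not with the chip as a fixed effect (limma adjusted p = 0.0398 and 0.172). A list of interferon beta, interferon receptors, JAK-family kinases and interferon regulatory factors had 11 genes tested. None passed, near the 0.608% of all genes, and interferon beta itself was not above background in either group. Il10 and Il19, like the Gbp pair, are neighbours, with 0 protein-coding genes between them.

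**Figure D2:**
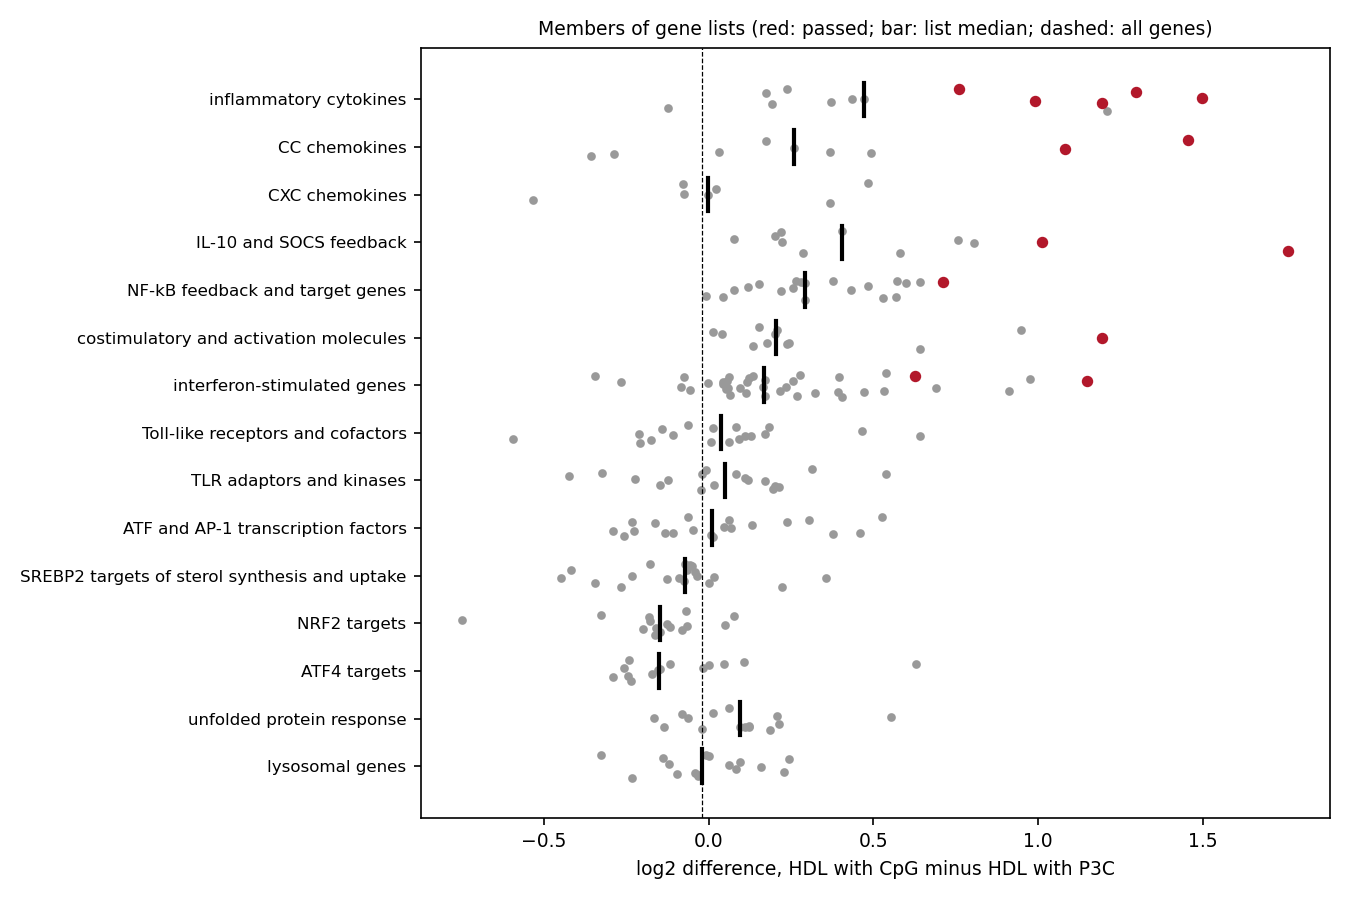
Each point is a tested gene of the list named on the y axis, placed by its log2 difference, HDL with CpG minus HDL with P3C; red points passed, black bars are list medians and the dashed line is the median of all 9213 genes. The medians of inflammatory cytokines (0.47) and of IL-10 and SOCS feedback genes (0.41) lie right of the dashed line, and that of CXC chemokines lies at -0.00.

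None of 18 Toll-like receptor and cofactor genes passed (median 0.04), and none of 18 adaptor and kinase genes did (median 0.05; with median scaling, -0.04 and -0.02). Both counts are near the 0.608% of all genes that passed. Tlr2 gave 14.15, 13.71 and 13.79 with CpG and 13.33, 13.50 and 13.43 with P3C, without overlap, at a difference of 0.46 (interval 0.14 to 0.78, limma adjusted p = 0.311). Tlr1, Tlr6 and Cd14 differed by -0.14, 0.11 and 0.09 and did not pass. The probe of Tlr9 was not above background on any array of either group. Map3k8, the TPL2 kinase of the ERK pathway, differed by 0.54 (limma adjusted p = 0.0754). Atf3, a stress-induced transcriptional repressor, gave 11.89, 11.84 and 12.03 with CpG and 12.10, 12.20 and 12.15 with P3C after HDL, a difference of -0.23 (interval -0.58 to 0.11).

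The lipid gene lists gave 1 call. Ch25h, whose enzyme makes 25-hydroxycholesterol, gave 8.53, 8.33 and 8.81 with CpG, 7.38, 7.75 and 7.36 with P3C and 6.75, 5.75 and 5.81 with HDL alone. Its CpG arrays were above all P3C arrays, at a difference of 1.06 ± 0.19 (SE; limma adjusted p = 0.00419, and 0.0128 with the chip as a fixed effect). Ch25h stands in the list of LXR targets and cholesterol efflux, whose other 10 tested members did not pass and whose median was 0.01 (-0.07 with median scaling). It is also known as an interferon- and TLR-induced gene. None of 19 SREBP2 targets of sterol synthesis and uptake passed (median -0.07), none of 11 fatty acid synthesis and desaturation genes (median -0.15) and none of 11 lipid droplet and scavenger receptor genes (median -0.05). Stress lists gave 0 calls as well, and all these counts of 0 are near the 0.608% of all genes that passed. The 15 NRF2 targets had a median of -0.15 with 2 differences above 0 (45.1% over all genes). Medians were -0.15 for 14 ATF4 targets and 0.10 for 15 genes of the unfolded protein response. With median scaling the medians of these stress lists were -0.23, -0.23 and 0.02. Those of the 3 preceding lipid lists were -0.15, -0.22 and -0.11, where the median of all genes was -0.0856. Hmox1, the heme-degrading NRF2 target, had the largest difference of its list at -0.75, with a limma adjusted p of 1.

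Of 13 matrix proteases and inhibitors tested 1 passed, Adamts4, against 0.521% of all genes that passed as higher with CpG. The list had a median of 0.14 and a range from -0.40 to 1.13. Adamts4, an aggrecan-cleaving protease, gave 9.41, 9.35 and 9.31 with CpG and 8.15, 8.08 and 8.45 with P3C (difference 1.13 ± 0.26 SE, limma adjusted p = 0.034). Cp, the copper-carrying ferroxidase ceruloplasmin, gave 9.85, 9.92 and 9.33 against 8.93, 8.44 and 8.58 (difference 1.05 ± 0.24 SE, limma adjusted p = 0.0263). Against HDL alone Adamts4 was higher by 4.03 with CpG and 2.90 with P3C, and Cp by 3.41 and 2.36. Cp and the next 2 genes were picked from the 56 after their values were seen. Adm, the vasodilator peptide adrenomedullin, differed by 0.91, and Plat, the tissue plasminogen activator, by 0.88 (limma adjusted p = 0.0345 and 0.0242). Of 10 acute phase and complement genes none passed and 10 differences were above 0 (45.1% over all genes), with a median of 0.28. The largest was that of lipocalin-2, Lcn2, at 0.93 (limma adjusted p = 0.0578). With the chip as a fixed effect, Cp and Adm passed (adjusted p = 0.03 for both) and Adamts4 and Plat did not (0.188 and 0.13).

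Of 20 ATF and AP-1 transcription factor genes none passed, near the 0.608% of all genes, with a median of 0.01 (-0.06 with median scaling). A few other regulators of transcription among the 56 are described here, picked after their values were seen. Tle3, a Groucho-family corepressor, gave 7.53, 7.25 and 7.20 with CpG and 6.55, 6.09 and 6.41 with P3C (difference 0.98 ± 0.22 SE, limma adjusted p = 0.0242). Further probes of Tle3 gave 0.04 and 0.43, and neither passed with every probe tested on its own. Bcor gave 9.42, 9.42 and 9.32 against 8.38, 8.63 and 8.31 (difference 0.94 ± 0.21 SE, limma adjusted p = 0.0263). Gfi1, a zinc finger repressor, differed by 0.89 and Csrnp1 by 0.75 (limma adjusted p = 0.00514 and 0.00419). Klf2, a factor that restrains macrophage activation, was detected with CpG and not above background with P3C; it was at least 1.21-fold higher with CpG, with measured log2 signals of 5.66, 5.53 and 5.51 against 4.88, 4.86 and 5.16. HDL alone gave 7.38, 7.81 and 7.59, so Klf2 was below HDL with both ligands. The same held for Gab1, a docking protein of growth factor receptors: 8.88, 8.85 and 8.67 with CpG, 7.90, 7.90 and 8.21 with P3C and 10.20, 10.36 and 10.24 with HDL alone. With the chip as a fixed effect Tle3 passed (limma adjusted p = 0.0148), and Bcor, Gfi1, Csrnp1, Klf2 and Gab1 did not (0.188, 0.0629, 0.098, 0.0564 and 0.114). A gene higher with CpG was thus not always one that CpG raised.

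**Figure D3:**
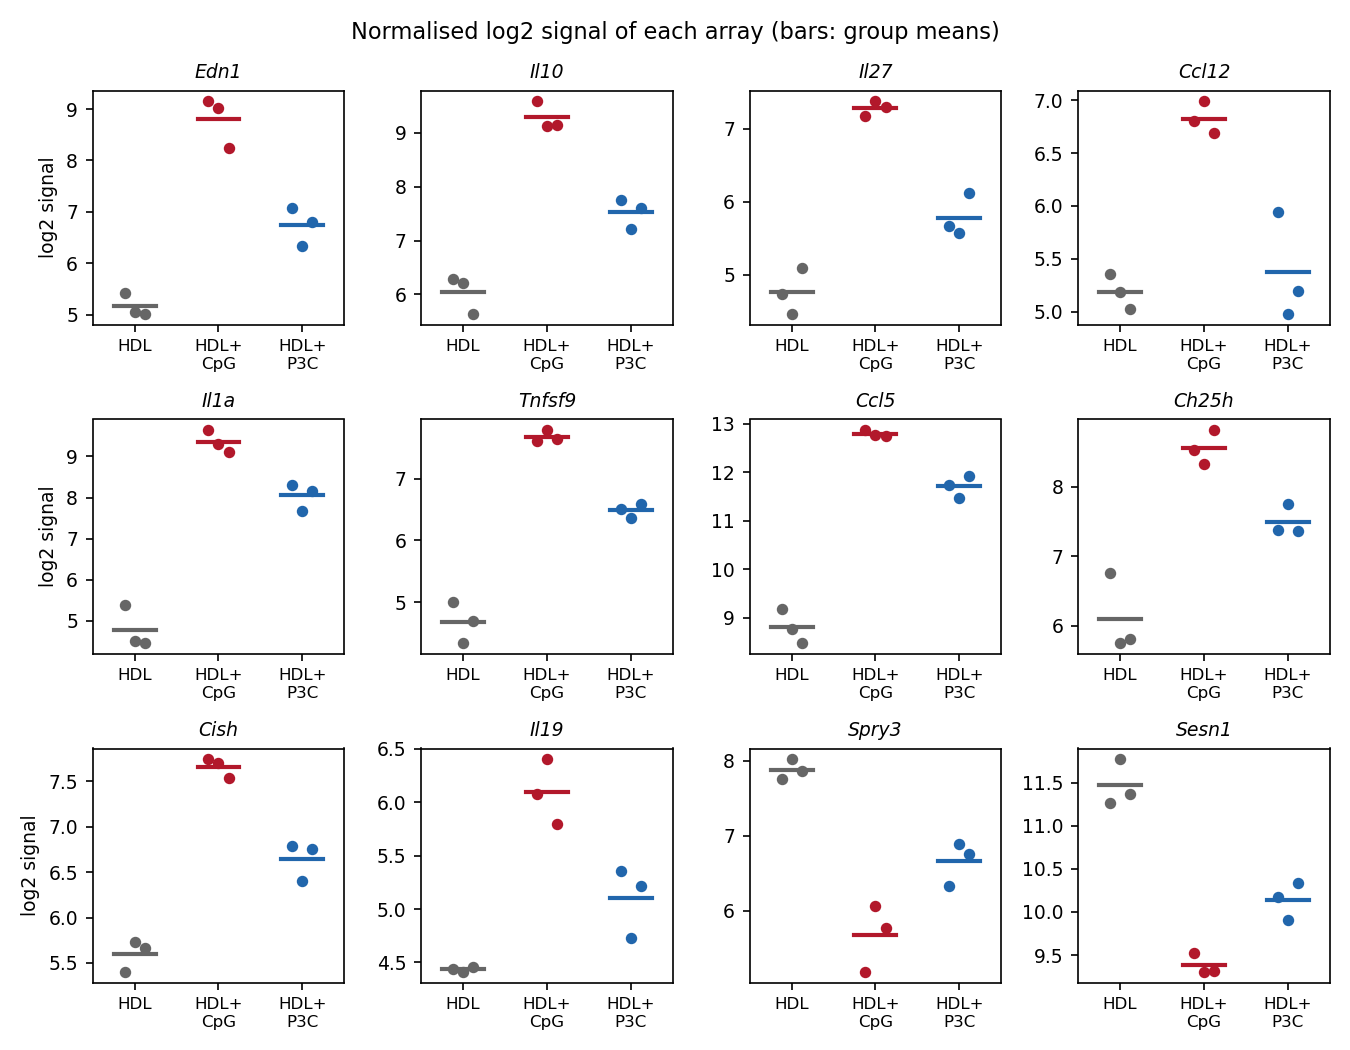
Each panel is a gene, and each point the normalised log2 signal of 1 array of wild-type cells given HDL alone (grey), HDL with CpG (red) or HDL with P3C (blue); bars are group means and the y axes differ. In the first 10 panels every CpG point lies above every P3C point, and for Spry3 and Sesn1 every CpG point lies below.

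The 8 genes higher with P3C differed by less than 2-fold. Spry3, a Sprouty-family antagonist of receptor tyrosine kinase signalling, gave 5.18, 6.07 and 5.77 with CpG, 6.33, 6.90 and 6.75 with P3C and 7.76, 8.02 and 7.87 with HDL alone. It was lowest with CpG, at a difference of -0.99 ± 0.22 (SE; limma adjusted p = 0.0242). Sesn1, a stress-induced inhibitor of mTORC1, gave 9.53, 9.30 and 9.31 with CpG, 10.18, 9.91 and 10.34 with P3C and 11.27, 11.77 and 11.37 with HDL alone (difference -0.76 ± 0.14 SE, limma adjusted p = 0.00419). Gab3, a docking protein downstream of the M-CSF receptor, followed the same order, with log2 signals of 6.23 to 6.43 with CpG, 6.91 to 7.12 with P3C and 8.64 to 8.83 with HDL alone (difference -0.69, limma adjusted p = 0.00419). Gab3 and Gab1, members of one family, thus differed in opposite directions between the ligands while both lay below HDL alone. Ccsap, a spindle protein, differed by -0.72, Bbs10, a chaperonin-like protein of ciliary transport, by -0.63 and Ss18l2 by -0.49. Mfsd12, a lysosomal transporter, was not above background with CpG and at least 1.07-fold higher with P3C (limma adjusted p = 0.0452). With the chip as a fixed effect Spry3 was the only one of the 8 to pass (limma adjusted p = 0.0128, against 0.0564 for Sesn1 and 0.152 for Gab3). The eighth is known only by the clone name 6430548M08Rik, at -0.62.

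To ask whether the ligand difference was the same without HDL, CpG was set against P3C in wild-type arrays that had no HDL. These arrays are not those above, though all share one estimate of the spread and some share chips with them. CpG without HDL lay on chips 1, 3 and 5, and P3C without HDL on chips 2, 2 and 5. Without HDL 71 genes passed (0.771%), 61 higher with CpG and 10 lower, and 46 without the first CpG array, which stood farthest of the 36 arrays from its group (root mean square deviation 0.674 log2 units, against 0.234 to 0.277 on the 6 arrays above). Of the 56 genes, 22 passed there too, which is 39.3% of the 56 and 31% of the 71, each in the same direction; without that array the shared genes were 17. Leaving out another CpG or P3C array without HDL gave 35 to 236 genes, 236 without the third CpG array. In sign, 53 of the 56 (94.6%) matched, against 53.7% of all genes tested, and 52 matched without that array. Edn1 kept a difference of 1.71 without HDL, from 10.52, 10.52 and 10.23 with CpG and 8.58, 8.68 and 8.87 with P3C (limma adjusted p = 9.37e-06). Il27 differed by 1.01 and Ccl12 by 1.60 (limma adjusted p = 0.00738 and 0.00471), and Il10 by 0.82 without passing (limma adjusted p = 0.227). Without the first CpG array Il27 differed by 1.16 and still passed, and Ccl12 differed by 1.31 and did not (limma adjusted p = 0.0068 and 0.069). Il19 differed by 1.63 without HDL and by 0.99 after it. With P3C it was near background in both, detected on 2 of 3 arrays without HDL and on 1 of 3 after it.

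No gene passed in the test of the ligand difference after HDL against that without it (0%). By limma 536 genes had an unadjusted p under 0.05, 5.82% of those tested, and the smallest adjusted p was 0.723. Ch25h was the gene of the 56 with the smallest p in this test: its ligand difference was 1.06 after HDL and 0.02 without it, a change of 1.04 (interval 0.47 to 1.60, limma adjusted p = 0.723), and 1.13 without the first CpG array. Ccsap changed by -0.75 (interval -1.16 to -0.34) and Plat by 1.02 (interval 0.45 to 1.58), or -0.80 and 0.62 without that array. Il1a differed by 1.30 after HDL and by 0.20 without it, a change of 1.09 (interval 0.44 to 1.75; 1.01 without that array). Cish differed by 1.01 and 0.24, a change of 0.78 (interval 0.30 to 1.25; 0.71 without that array). These 5 genes were singled out after their values were seen, and none passed the adjustment. They come from the 56, chosen by their difference after HDL, so larger differences after HDL were favoured. A further 49 genes passed without HDL and not after it, a choice that favours the reverse. Of these, Ppp1r3d, also picked after its values were seen, differed by 0.42 after HDL and 1.24 without it. Its change was -0.82, with an unadjusted limma p of 0.0001, against 0.000744 for Ch25h. The difference of the 49 from the 56 is likewise not borne out gene by gene.

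**Figure D4:**
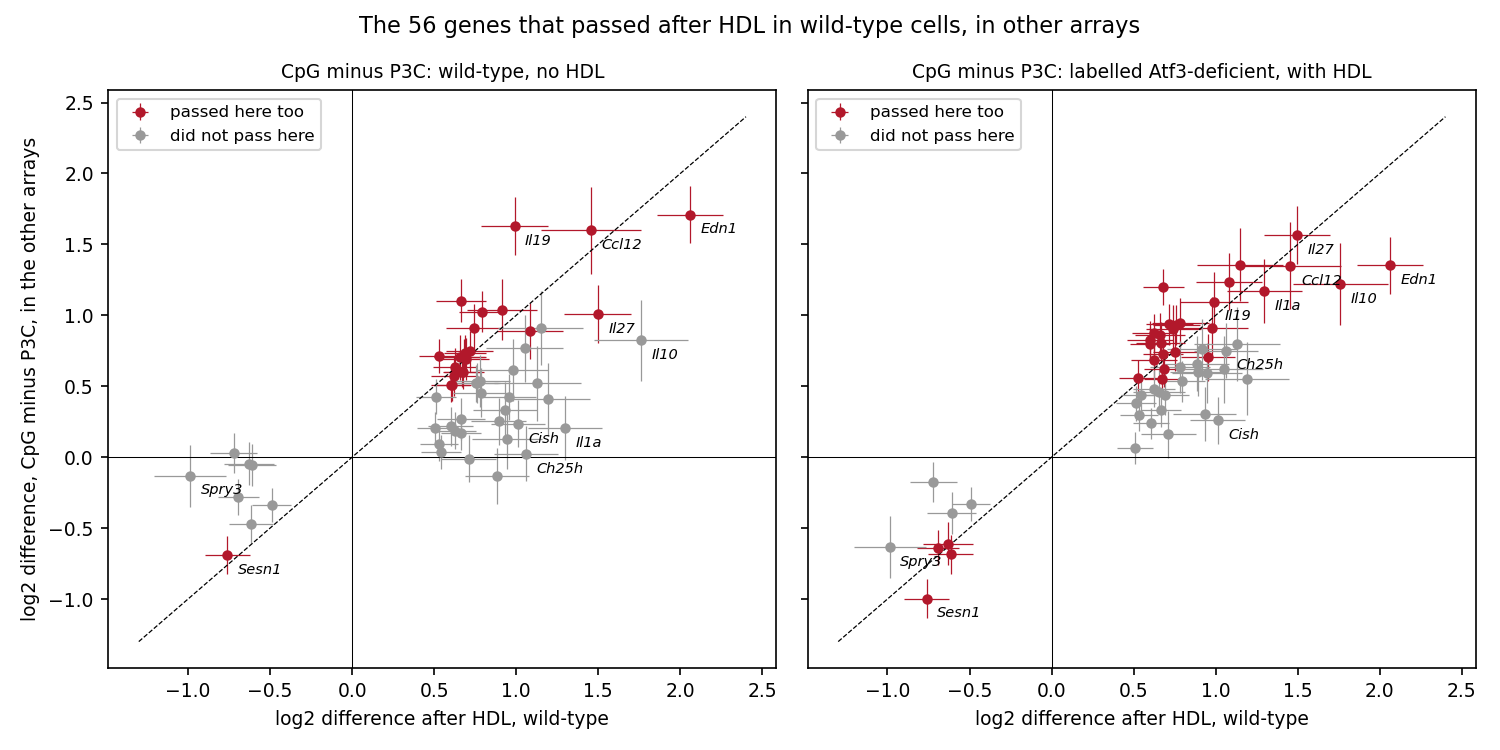
Each point is 1 of the 56 genes, with its log2 difference CpG minus P3C after HDL in wild-type arrays on the x axis. The y axis gives the same difference in wild-type arrays without HDL (left) and in arrays labelled Atf3-deficient with HDL (right); bars are 1 SE, red points passed there too, and the dashed line marks equal differences. Left, 53 points share their sign with the x axis, and right, all 56 do.

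The same ligand difference after HDL was measured in macrophages labelled Atf3-deficient. On arrays with this label, HDL with CpG lay on chips 1, 3 and 5 and HDL with P3C on chips 2, 4 and 6. Some of these chips also held wild-type arrays of this comparison. The Atf3 probe goes against that label: it gave 12.78, 12.91 and 12.87 with CpG and 13.21, 13.13 and 13.38 with P3C in these arrays, above the wild-type values, and whether it lies in a deleted part of the gene is not given. In the arrays labelled Atf3-deficient 91 genes passed (0.988%), 72 higher with CpG and 19 lower; with median scaling these were 10, of which 90% were higher. Of the 56 wild-type genes, 30 passed there too, 53.6% of the 56 and 33% of the 91, in the same direction. All 56 had the same sign, against 60% of all genes tested. Edn1 gave 9.97, 10.06 and 10.03 with CpG and 8.66, 8.74 and 8.61 with P3C, higher than wild-type in both groups, at a ligand difference of 1.35 (limma adjusted p = 0.000441). Il10 and Il27 differed by 1.22 and 1.57 (limma adjusted p = 0.0269 and 7.03e-05). Cish differed by 0.26 and Snx18, a membrane-trafficking sorting nexin, by 0.06, neither passing.

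No gene passed in the test of the ligand difference between the labels (0%), with 262 genes at an unadjusted limma p under 0.05 (2.84%) and a smallest adjusted p of 0.999. Under median scaling the median over all genes in this test was -0.167, against -0.00627 as reported, and 0 genes passed there, as in the other 20 alternatives. A total of 17 genes passed in all 3 ligand comparisons: Edn1, Il27, Ccl12, Ccl5, Il19, Gbp3, Stx11, Rhou, Marchf1, Swap70, Snn, Mon1b, Noct, Rai14, Dcun1d3 and Rin2 were higher with CpG in each, and Sesn1 was lower in each. Without the first CpG array of the cells without HDL, 13 of the 17 still passed there, and Ccl12, Ccl5, Dcun1d3 and Rai14 did not (limma adjusted p = 0.069, 0.134, 0.158 and 0.126). Noct, encoding the circadian phosphatase nocturnin, held to a narrow range, with differences of 0.67, 0.60 and 0.55 ± 0.11 (SE) after HDL, without HDL and in arrays labelled Atf3-deficient. Marchf1, a ubiquitin ligase that removes MHC class II from the surface, gave 0.72, 0.75 and 0.94 ± 0.14 (SE). A further probe of Marchf1 gave 0.18 after HDL in wild-type arrays and did not pass. Further probes of Mon1b gave 0.37 and -0.02 in that comparison, and neither passed. Stx11, a syntaxin of membrane traffic, gave 0.66, 1.10 and 0.86 ± 0.15 (SE). A total of 21 genes passed after HDL in wild-type arrays and in neither other comparison, among them Ch25h, Cish, Tnfsf9, Adamts4 and Nfkbib; without that array 1 of them, Dusp16, also passed without HDL (difference 0.58, limma adjusted p = 0.0166). For none of the 21 did the difference between comparisons pass.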

How the data were processed

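The deposited scanner table of this experiment gives the averaged intensity of each probe on each array and, per the file headers, its detection p-value; the intensities are linear and were not normalised between arrays. The authors' deposited matrix of normalised intensity served as an alternative. The submitters' processing notes name Partek, and its steps are not given in the sources used here. A detection p-value under 0.01 counts as detected.

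The 36 arrays of the experiment were processed together with limma 3.58.1 in R 4.3.3. The neqc function corrected background with normexp from the detection p-values, added an offset of 16, quantile normalised and took log2 of the deposited intensity. Of 45281 probes, 34885 carry 1 gene symbol, 18 several and 10378 none. The probe with the highest mean represents a gene, and 9213 genes detected on at least 3 arrays were tested. A model with a mean for each of 12 groups (24 residual degrees of freedom) was moderated by eBayes. Comparisons are contrasts of group means, adjusted over all genes by Benjamini-Hochberg, with a threshold of 0.05. A gene is not above background in a group where no array detected it; its fold is then a lower bound, against the higher of its own and the lowest detected signal. The model was tested on simulated data. Promoter windows come from RefSeq. Figures used Python 3.11.15 and matplotlib 3.10.9. Chips were taken from the array titles. The alternatives changed the background correction, scaling, detection filter, chip term, groups or arrays in the model and array weights. The precision is limited by 3 arrays a group.

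The comparison, gene lists and alternatives were chosen with earlier results of these data known. Named genes are the 15 largest rises and the falls among genes that passed without clone names, the 3 largest differences of each list, and genes followed throughout; other genes that passed were named after their values were seen. Medians of lists are described beside those of all genes, without a set test.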

Additional observations from a re-analysis of the deposited data

How the results depend on the processing

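Of the 56 genes, all kept their direction in 16 alternatives, and 3 passed in each. Without normexp correction 61 genes passed, with the deposited matrix 61, without a detection filter 49, with the chip as a random block 57 (correlation 0.0958) and with every probe tested on its own 63. Fewer passed with median scaling (3), a model of the compared groups (9), the chip as a fixed effect (21) or only the 18 wild-type arrays (24), and 158 with arrays weighted by quality, an alternative chosen after seeing the data. Leaving out 1 array gave 19 to 43: 19 and 24 without HDL with CpG replicates 1 and 2, and 32, 23 and 33 without HDL with P3C replicates 1, 2 and 3. List members that passed were 18, and 2, 8, 6, 9 and 33 under median scaling, chip as a fixed effect, only the groups compared, wild-type arrays and quality weights, and 7 to 15 with 1 array left out.

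Without HDL, 71 genes became 4 with median scaling, 41 with the chip as a fixed effect, 0 with only the groups compared and 35 to 236 with 1 array left out: 46, 150 and 236 without CpG replicates 1, 2 and 3, and 35 without P3C replicate 1. The test of the ligand difference after HDL against that without it gave 0 genes in each setting but 1, with 1 gene without CpG replicate 3. In arrays labelled Atf3-deficient, 91 became 10 with median scaling and 16 with only the groups compared, and 62 to 69 with 1 array left out. For HDL with P3C against HDL, 4143 became 2531 with median scaling. Standard errors are wider with median scaling (median 0.26 against 0.175); otherwise the cause was not tested. No paired analysis was possible because the labels carry no replicate numbers. Of 34 further probes of 22 of the 56 genes, 33 had the sign of the probe used and 5 passed. For genes not above background in both groups, such as Tlr9 and Ifnb1, no fold is given.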
